A study of Mus musculus with 6 samples.

Results

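The genes described here encode the mouse receptors for insulin and insulin-like growth factors (Insr, Igf1r and Insrr), the ligand Igf1, the receptor substrates Irs1 and Irs2, and 4 secreted binding proteins (Igfbp2, Igfbp3, Igfbp4 and Igfbp5). Members were taken by name from probe sets annotated to exactly 1 gene, and where a gene had several, the brightest over the 6 arrays stood for it. All 10 were measured, out of 19937 genes in the series. RNA came from fetal gonads dissected free of the mesonephros at E13.5 (embryonic day) and was hybridised to Affymetrix arrays. Wild-type gonads filled 3 arrays, numbered 1, 2 and 5 in the labels, each holding a pool of 6 gonads. Gonads of genotype Sox9flox/flox; Sf1:creTr/+ filled the other 3, numbered 3, 4 and 6, each holding a pool of 12, and are called the Sox9 mutant. Where array values are listed, they follow that order, 1, 2 and 5 and then 3, 4 and 6. Both groups had the same mixed background of C57BL6/J crossed with 129. In the mutant, Cre recombinase driven by regulatory sequence of Sf1 (Nr5a1), a gene of gonadal somatic cells, acts on floxed alleles of Sox9, which encodes a transcription factor that Sertoli cells need. No group carried Cre or the floxed alleles alone, so their own effects cannot be told apart from the loss of Sox9, and pool size differed with genotype. The labels do not say whether pools came from separate litters. The p-values thus judge each difference against the spread between these pools, which may be partly technical.

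Insulin and IGF receptors are tyrosine kinases that pass their signal through IRS adaptor proteins to phosphoinositide 3-kinase and AKT. IGF-binding proteins hold IGFs outside the cell, where they prolong their life, limit access to the receptor or deliver them locally. In the mouse, gonads that lack these receptors together fail to form a testis, and the family is also known to act in growth of the gonad and in steroid-producing cells. The comparison of wild type with mutant gonads shows which of these genes differ in expression between the genotypes, within the limits of the design given above.

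The labels were checked first. Sox9 measured 8.82, 8.81 and 9.20 log2 in wild type and 7.52, 7.78 and 7.60 in the mutant. The SE of its difference, -1.31 log2, was 0.14 (limma adjusted p = 0.0012). Nr5a1 differed by -0.02 ± 0.14 log2 (adjusted p = 0.971), so the Cre driver gene did not pass. Marker genes were listed for this work with earlier results of these data known, and the Sertoli list includes Sox9 itself. In the mutant 9 of 12 Sertoli genes, 6 of 6 Leydig genes and 5 of 6 genes of interstitial mesenchyme were lower. Of pregranulosa genes, of the supporting cells of the ovary, 7 of 7 were higher. These counts are thus no independent check of the labels. Mean levels of these lists ran from 9.33 to 9.36 log2 in wild type and 6.87 to 8.05 in the mutant (Sertoli), 10.47 to 10.54 and 6.95 to 8.82 (Leydig), 11.37 to 11.44 and 10.52 to 10.80 (mesenchyme) and 7.28 to 7.40 and 9.10 to 9.31 (pregranulosa). In germ cells 2 of 5 genes were lower, Dppa3 (-1.55 log2) and Dnd1 (-0.83), with list means of 10.37 to 10.53 in wild type and 9.64 to 10.22 in the mutant. Of 4 smooth muscle genes Acta2 (-1.51) and Tagln (-1.07) were lower and Myh11 (0.56) was higher, with list means of 8.61 to 8.72 and 7.89 to 8.34. Of 5 mesonephric genes Gata3 (1.2) was higher and Lhx1 (-0.96) lower, and of 3 erythroid genes Alas2 (-0.51) was lower. By limma 0 of 7 endothelial, 0 of 6 macrophage and 0 of 8 liver genes passed, with 3, 1 and 1 at an unadjusted p under 0.05. Over all 19937 genes 2.64% passed as higher and 4.3% as lower, and 4324 had an unadjusted p under 0.05. In lists this short a count of 0 passing is near those shares. In such bulk tissue, fewer cells of a type and less RNA per cell cannot be told apart, and the part of these shifts in the results below was not tested. Some arrays stood apart. Afp and Alb, genes of the fetal liver, measured 11.26 and 11.42 log2 on wild type 5, against 5.64 to 6.06 on wild type 1 and 2. On mutant 3 Xist, the RNA of the inactive X chromosome, measured 7.29 against 4.97 to 5.48 on the 5 other arrays. Of the Y-linked genes measured, Eif2s3y lay between 9.56 and 9.77 on all 6. Uty was lowest on mutant 3, at 8.02 against 8.33 to 8.85 elsewhere. Kdm5d measured 7.98 on mutants 3 and 4, against 8.16 to 8.46 on the rest. On mutant 4 the Sertoli and Leydig lists lay nearer to wild type than on mutants 3 and 6.

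Of the 10 genes, Igf1 and Igfbp2 were higher in the mutant and Igfbp3 and Irs2 were lower, while the 3 receptors, Irs1, Igfbp4 and Igfbp5 did not pass the test. The test was limma across 28187 probe sets with Benjamini-Hochberg adjustment and a threshold of 0.05. Thus 4 of 10 members passed, where 6.94% of all 19937 genes did; 2.64% of all genes were higher and 4.3% lower. The median difference over the 10 members was -0.08 log2, against 0.00 over all genes. In 5 members the values of the groups did not overlap, the 4 that passed and Insr; this was so for 28.7% of all genes. Without wild type 5, mutant 3 or mutant 6 the same 4 members passed. Without wild type 1, wild type 2 or mutant 4 only 3 did, and the call of Irs2 was lost.

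**Figure D1:**
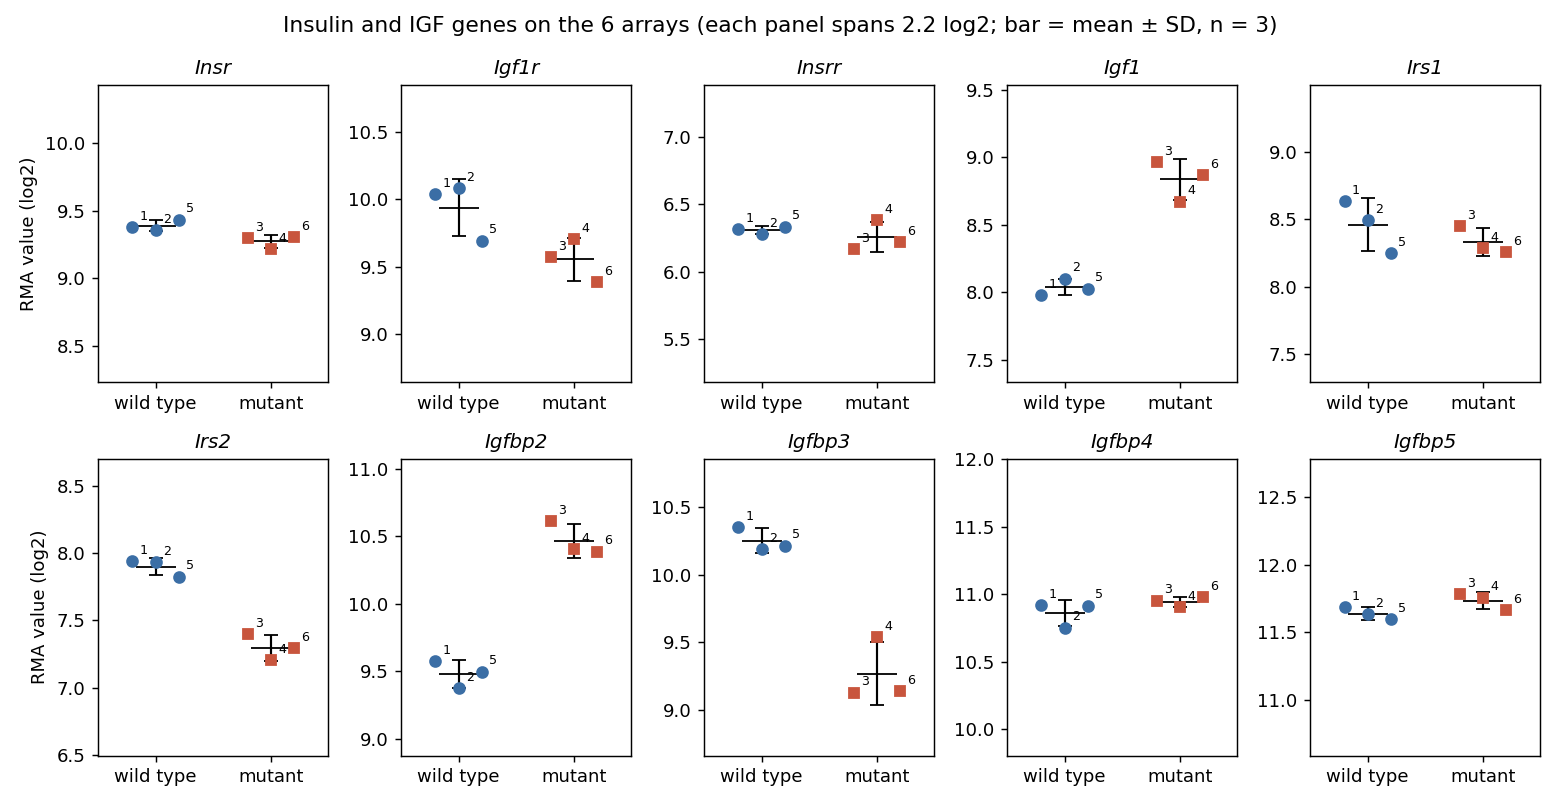
Log2 expression values of the 10 genes, 1 panel per gene with equal vertical span; circles are wild-type arrays, squares are mutant arrays, the small digit is the array number and the bar is the mean with its SD (n = 3). The mutant squares lie above all circles for Igf1 and Igfbp2, below them for Irs2 and Igfbp3, and by a small margin below them for Insr.

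Igf1 is the growth-promoting ligand of IGF1R, made by many mesenchymal and somatic cells. Its values were 7.98, 8.10 and 8.03 log2 in wild type and 8.96, 8.67 and 8.87 in the mutant. Every mutant array was above every wild-type array, and mutant 4 was the lowest of the mutants. Igf1 rose from 8.03 ± 0.06 to 8.83 ± 0.15 log2 (SD, n = 3 each), a difference of 0.80 ± 0.12 (SE; limma adjusted p = 0.0054) or 1.74-fold. By size of increase it ranked 257 of 19937 genes. The difference stayed between 0.73 and 0.88 log2 over 14 other settings of the analysis, and the gene passed in each.

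The upstream sequence of Igf1 was searched for short DNA words known from factors of the gonad, in windows from 250 bases before to 50 bases after RefSeq start sites. Windows were on hand for 8 of the 10 genes, Insr and Insrr excepted. For SOX factors the word ACAATG was searched on either strand, as was the related word ACAAAG. For NR5A1 the word searched was AAGGTCA, for forkhead factors it was the word GTAAACA and for GATA factors it was the word AGATAA. The E-box word CACGTG was added after the sequences had been read, as was the word TATAAA of the TATA box. Igf1 was the gene with both SOX words. It held ACAATG beginning at the start base and ACAAAG, read on the opposite strand as CTTTGT, 116 bases before it. The stretch around the latter (GRCm38.p6 chr10:87860983-87861012, plus strand, with the word in capitals) is printed to show it. A longer annotated form of Igf1 starts farther upstream.
Igf1: ggcgcctgctggCTTTGTactctgaggctc
Among all 32851 windows, 12.6% held ACAATG and 18.7% held ACAAAG, so such words are common, and a match does not show binding.

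The receptors showed no change that passed. Insr, the insulin receptor, measured 9.38, 9.36 and 9.43 log2 in wild type and 9.30, 9.22 and 9.30 in the mutant. The mutant values were all lower, but by little. The difference was -0.12 log2 with a 95% interval from -0.35 to 0.12 (limma adjusted p = 0.617), and the other probe set of Insr gave -0.05 (adjusted p = 0.906) with overlapping groups.

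Igf1r, the receptor for IGF1 and IGF2, measured 10.04, 10.09 and 9.69 log2 in wild type and 9.57, 9.71 and 9.39 in the mutant, in the same array order. Wild type 5 lay below mutant 4, so the groups overlapped. The difference was -0.38 log2 (95% interval -0.71 to -0.06; limma unadjusted p = 0.0254, adjusted p = 0.181). It was negative in all 14 other settings, from -0.51 without wild type 5 to -0.30 without mutant 6, and its lowest adjusted p, with a model term for arrays 5 and 6, was 0.0543. Arrays 5 and 6 stood apart from the 4 others along the second principal component (23.3% of the variance); the labels name no batch for them. Among arrays 1 to 4 Igf1r differed by -0.42 log2, and mutant 6 differed from wild type 5 by -0.30.

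Insrr, the orphan relative of the insulin receptor, which is activated by alkaline medium, lay between 6.17 and 6.38 log2 on the 6 arrays, with overlapping groups. This is under 6.67 log2, the mark used here for background, below which 95% of 1208 probe sets of olfactory and vomeronasal receptors lay. Its difference of -0.05 log2 (95% interval -0.30 to 0.20; limma adjusted p = 0.865) thus describes a signal near background.

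Igf1r held the single match to the NR5A1 word among the windows searched, 86 bases before its start on the opposite strand, and an ACAAAG word 9 bases after the start. The NR5A1 word was in 4.72% of all windows. Insr and Insrr had no window to search.

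Of the receptor substrates Irs2 passed and Irs1 did not, and the difference between them was not tested. Irs2, the adaptor that carries insulin signals to phosphoinositide 3-kinase in many tissues, measured 7.94, 7.94 and 7.82 log2 in wild type and 7.40, 7.20 and 7.29 in the mutant. No mutant array reached a wild-type array, and mutant 4 was the lowest. Irs2 was 1.52-fold lower in the mutant, with a difference of -0.60 ± 0.11 log2 (SE; limma adjusted p = 0.0148). The call was lost when wild type 1, wild type 2 or mutant 4 was left out, with adjusted p = 0.0731, 0.0626 and 0.0608, and the difference then ran from -0.58 to -0.55. Irs1, its close relative, measured 8.63, 8.50 and 8.25 log2 in wild type and 8.45, 8.29 and 8.26 in the mutant. Its groups overlapped and wild type 5 was the lowest of all 6. The difference was -0.13 log2 (95% interval -0.43 to 0.17; limma adjusted p = 0.675). A dimmer probe set of Irs1, below the background mark, gave 0.05 (adjusted p = 0.897).

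The windows of Irs1 and Irs2 both held the E-box word CACGTG, as did 7.15% of all windows. Igfbp2 held it in the window at its outermost start and not in its other window. Because the word was added after these sequences had been read, the matches cannot be weighed against that share. The 30 bases around it are set side by side to show how far the 2 sequences are alike there: 11 of the 30 aligned positions differ. Irs1 is from GRCm38.p6 chr1:82291537-82291566 and Irs2 from chr8:11008956-11008985, both on the minus strand, with the E-box in capitals.
Irs1: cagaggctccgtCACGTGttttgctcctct
Irs2: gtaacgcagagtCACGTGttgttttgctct
The word began 115 bases before the start of Irs1 and 44 before that of Irs2, and the longest runs that the whole windows had in common were 10 bases long. There were 2 of these, gtcacgtgtt over the E-box and tgttttgctc, which lies at an offset between the genes. The latter starts within the end of the E-box in Irs1 and after it in Irs2. Neither window held a SOX or NR5A1 word. No window of a member held the forkhead or the GATA word, which were in 3.65% and 11.2% of all windows.

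Binding proteins moved in opposite directions. Igfbp2, which binds IGF2 with preference and is made widely in fetal tissue, measured 9.58, 9.37 and 9.50 log2 in wild type and 10.61, 10.41 and 10.39 in the mutant. The lowest mutant array was 0.81 log2 above the highest wild-type array. Igfbp2 rose from 9.48 ± 0.10 to 10.47 ± 0.13 log2 (SD, n = 3 each), a difference of 0.98 ± 0.12 (SE; limma adjusted p = 0.0020) or 1.98-fold, and ranked 168 of 19937 genes by increase.

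Igfbp3, the main carrier of IGFs in blood and a local regulator in tissue, measured 10.35, 10.19 and 10.22 log2 in wild type and 9.13, 9.53 and 9.13 in the mutant. All mutant arrays were lower, and mutant 4 fell least. Igfbp3 was also 1.98-fold changed, but lower, with a difference of -0.99 ± 0.14 log2 (SE; limma adjusted p = 0.0042), and ranked 235 of 19937 by decrease. The mutant spread (SD 0.23, against 0.09 in wild type) came mainly from mutant 4. Igfbp2 and Igfbp3 passed in each of 14 other settings, with differences from 0.91 to 1.05 and from -1.12 to -0.90 log2. On wild type 5, the array with liver signal, Igfbp2 and Igfbp3 both lay between the other wild-type values, and without it the differences were 0.99 for Igfbp2 and -1.01 for Igfbp3. Without mutant 3, which had the Xist signal, they were 0.91 and -0.92.

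Igfbp4, an inhibitory binding protein cut by the protease PAPP-A, measured 10.92, 10.75 and 10.92 log2 in wild type and 10.95, 10.91 and 10.98 in the mutant. Its groups overlapped, and the difference was 0.08 log2 (95% interval -0.16 to 0.33; limma adjusted p = 0.756). Igfbp5, which binds matrix as well as IGFs, measured 11.69, 11.63 and 11.59 in wild type and 11.78, 11.75 and 11.66 in the mutant. Here mutant 6 lay below wild type 1, and the difference was 0.10 log2 (95% interval -0.14 to 0.33; adjusted p = 0.703). These intervals leave out changes of the size seen in Igfbp2 and Igfbp3.

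**Figure D2:**
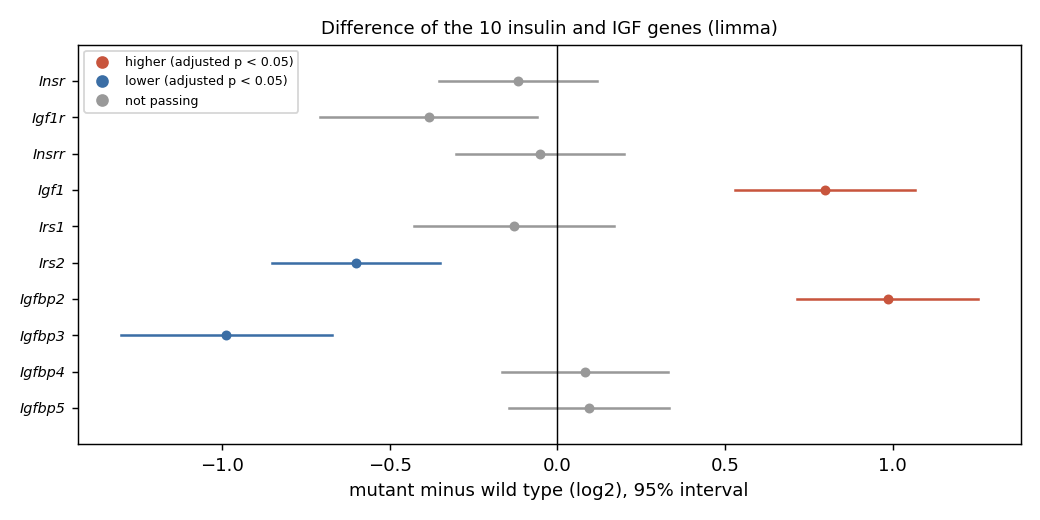
Difference between mutant and wild type in log2 for the 10 genes, with 95% intervals from the limma fit; red marks genes higher in the mutant, blue lower, grey those that did not pass. Igfbp2 (0.98) and Igfbp3 (-0.99) lie at opposite ends, and the intervals of Igfbp4 and Igfbp5 include 0.

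Of 15 measured genes next to a member on the chromosome and not members themselves, 12 did not pass, 1 was higher and 2 were lower. Over all genes 2.64% were higher and 4.3% lower. In the RefSeq annotation (GRCm38.p6) Igfbp2 and Igfbp5 are adjacent protein-coding genes, and Igfbp2 rose while Igfbp5 did not pass. Igfbp3 has Igfbp1 on one side, which lay below the background mark in both groups (6.16 and 6.03 log2; limma adjusted p = 0.794), and Tns3, encoding a tensin, on the other, which rose by 0.60 ± 0.14 log2 (SE; adjusted p = 0.0387). Col4a1, a basement membrane collagen next to Irs2, fell by 0.89 ± 0.19 log2 (adjusted p = 0.0250). Synm, next to Igf1r, fell by 0.66 ± 0.12 (adjusted p = 0.0162).

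The upstream sequences of Igfbp2, which rose, and Irs2, which fell, are printed as the 250 bases before the outermost annotated start, since they changed in opposite directions while both carry the E-box (capitals) and none of the other words. Igfbp2 is from GRCm38.p6 chr1:72824230-72824479, plus strand, and Irs2 from chr8:11008930-11009179, minus strand.
Igfbp2: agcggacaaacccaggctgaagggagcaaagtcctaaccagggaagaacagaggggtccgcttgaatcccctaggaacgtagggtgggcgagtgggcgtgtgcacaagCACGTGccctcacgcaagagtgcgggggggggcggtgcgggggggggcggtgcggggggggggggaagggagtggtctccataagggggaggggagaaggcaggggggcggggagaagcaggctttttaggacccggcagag
Irs2: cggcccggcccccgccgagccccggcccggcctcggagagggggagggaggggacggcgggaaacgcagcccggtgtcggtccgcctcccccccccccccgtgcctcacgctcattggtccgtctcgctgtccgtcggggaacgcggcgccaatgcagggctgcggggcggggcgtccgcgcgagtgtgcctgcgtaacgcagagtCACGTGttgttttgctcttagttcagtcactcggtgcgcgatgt
G and C made up 67% of this 300-base window of Igfbp2 (57.3% of its other window) and 72% of that of Irs2. The median over all windows was 52.7%. Igfbp3 (71.7% G and C) held none of the words, and Igfbp5 (56.3%) none either. Unlike that of Igfbp5, the windows of Igfbp3 and Igfbp4 did not lie at the outermost annotated start of the gene. Igfbp4 (71.3%) held TATAAA, which was in 13.6% of all windows, 28 bases before its start. That word too was added after the sequences had been read.

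The mutant arrays differed in how far these genes moved. Against the wild-type mean, Igfbp3 lay at -1.13, -0.72 and -1.12 log2 on mutants 3, 4 and 6, and Igf1 at 0.93, 0.64 and 0.83. Those of Igfbp3 and Igf1 were nearest to wild type on mutant 4, where the median shifts of the Sertoli list (-1.25, against -2.30 and -2.22) and of the pregranulosa list (1.63, against 2.03 and 1.96) were also the smallest. Igfbp2, at 1.13, 0.92 and 0.90, was highest on mutant 3, and Irs2, at -0.50, -0.70 and -0.61, was lowest on mutant 4. Whether cell composition accounts for these differences was not tested.

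**Figure D3:**
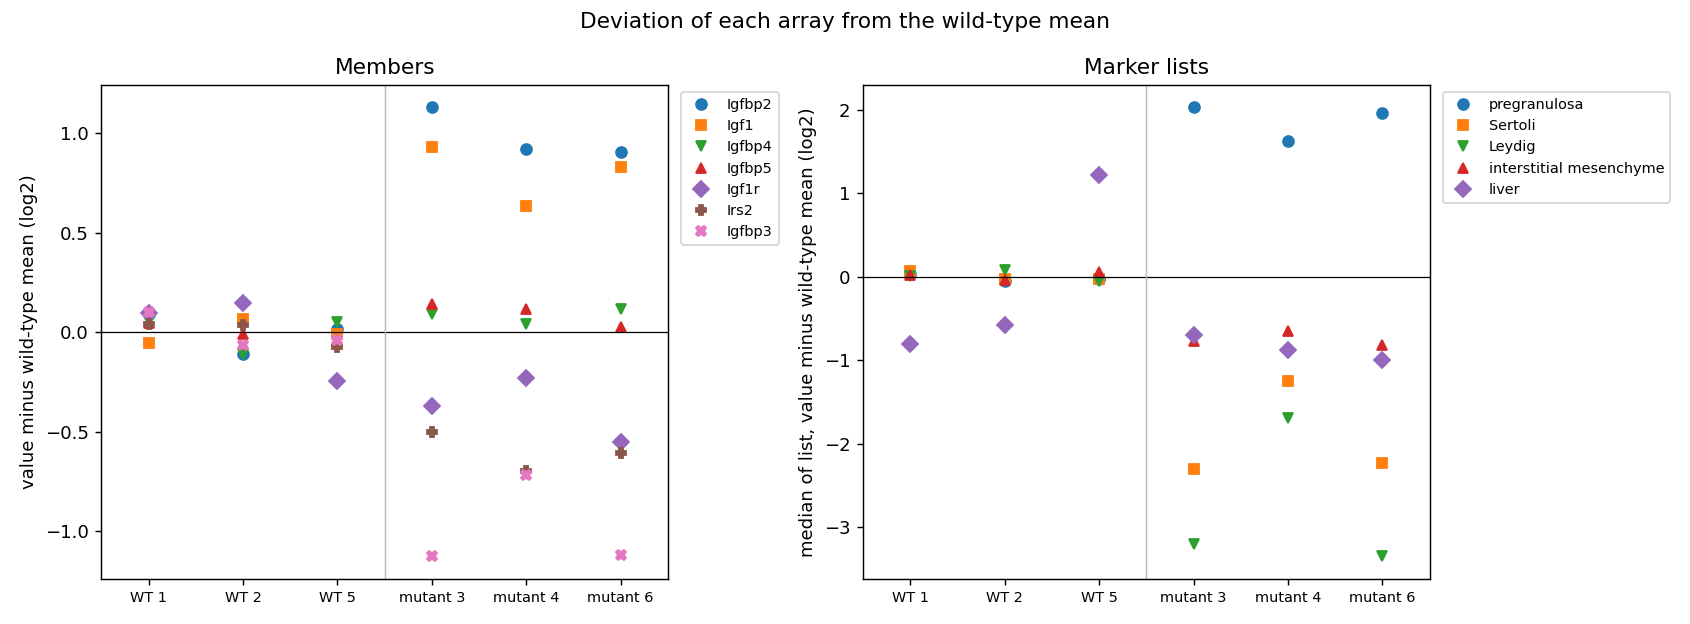
Deviation of each array from the wild-type mean in log2, for 7 of the genes (left) and as the median over marker lists (right); the vertical line separates wild-type from mutant arrays. Igfbp3 and Igf1 lie nearest to 0 on mutant 4 among the mutants, as do the Sertoli, Leydig and pregranulosa medians, and the liver list is high on wild type 5 alone.

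For each member that passed, the 3 genes with the most similar profile over the 6 arrays were found by Pearson correlation among 13001 other genes above the background mark. They were Dtna, Efna5 and Pmepa1 for Igfbp3 (r = 0.999 each), Rec8, Slc41a3 and Fbxl5 for Igfbp2 (r = 0.999, 0.997 and 0.996), Dnah8, Neu3 and Irx3 for Igf1 (r = 0.999, 0.997 and 0.997) and Hspa1a, Tgfb1 and Adprhl2 for Irs2 (r = 0.992, 0.992 and 0.991). Of the genes searched, those above 0.99 numbered 96 for Igfbp3, 33 for Igfbp2, 20 for Igf1 and 4 for Irs2. A shared difference between the groups is enough for a high r over 6 arrays, so these values do not show a link between genes. Of the genes named, Fbxl5 and Adprhl2 did not pass (limma adjusted p = 0.0667 and 0.120).

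The rest of the pathway was followed in 71 further genes, of which 64 were measured by a probe set of their own. Of these, 3 were higher and 9 lower in the mutant and 52 did not pass, with a median difference of -0.04 log2; the share called was 18.8%, against the 6.94% of all genes. The list was drawn up with earlier results of these data known. Without wild type 1 the count was 7, and without wild type 2, wild type 5 or mutant 3 it was 8. Other settings that kept all 6 arrays gave counts from 13 to 16.

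Ligands and other receptors did not pass. Igf2, the fetal growth factor, measured 11.72, 11.53 and 11.70 log2 in wild type and 11.83, 11.76 and 12.01 in the mutant. The mutant arrays were all higher, by 0.22 log2 on average (limma adjusted p = 0.376). Igf2r, which clears IGF2, was higher by 0.19 (limma adjusted p = 0.378) with no overlap, as was found for 28.7% of all genes. Of 6 ligands and 4 receptors outside the members 0 passed in limma, with 0 and 1 at an unadjusted p under 0.05. Over all 19937 genes 6.94% passed, and 4324 had an unadjusted p under 0.05. In lists this short a count of 0 passing is near that share. Below the background mark lay 4 of these ligands and 3 of these receptors. Ins2 was among them, at 5.95 to 6.42 log2.

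Igfbp7 and Stc1 had the largest changes among the 64 pathway genes, followed by Grb14, Pik3r3 and Socs2, which are described with their groups. Igfbp7, a secreted relative that binds IGFs weakly, measured 10.59, 10.58 and 10.59 log2 in wild type and 8.19, 8.91 and 7.83 in the mutant. The wild-type arrays were close together, and again mutant 4 was the nearest to them. Igfbp7 was thus 4.86-fold lower, with a difference of -2.28 ± 0.23 log2 (SE; limma adjusted p = 0.0010). The stanniocalcins, secreted inhibitors of PAPP-A proteases, were lower too: Stc1 fell by 1.65 ± 0.16 (adjusted p = 0.00081) and Stc2 fell by 0.92 ± 0.11 (adjusted p = 0.0016). The protease genes themselves, Pappa (-0.20, adjusted p = 0.419) and Pappa2 (0.22, adjusted p = 0.419, below the background mark), did not pass, and 3 of 10 genes in this group did, where 6.94% of all genes passed.

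Among adaptors and inhibitors of the receptors 4 of 15 were lower and 0 higher, where 4.3% of all genes were lower and 2.64% higher. Grb14, which binds the insulin receptor and dampens its signal, fell by 1.36 ± 0.17 log2 (SE; limma adjusted p = 0.0025). Socs2, a feedback inhibitor of growth hormone signalling, fell by 1.24 ± 0.20 (adjusted p = 0.0073), and its other probe set fell by 0.73 (adjusted p = 0.0229). Dok1, a docking protein, fell by 0.91 ± 0.16 and Sh2b2, an adaptor of the insulin receptor, fell by 0.51 ± 0.11 (adjusted p = 0.0136 and 0.0277). The calls of Dok1 and Sh2b2 ended in 4 and 6 of 14 settings, with adjusted p up to 0.0718 and 0.111.

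In the phosphoinositide 3-kinase and AKT group 3 of 11 genes were higher and 0 lower, where 2.64% of all genes were higher and 4.3% lower. Pik3r3, a regulatory subunit of the kinase, measured 9.45, 9.73 and 8.94 log2 in wild type and 11.05, 10.69 and 10.34 in the mutant. The groups did not overlap, and each group was lowest on its last-named array. Pik3r3 rose by 1.32 ± 0.23 log2 (SE; limma adjusted p = 0.0110), Pik3r1, the best-known regulatory subunit, by 0.68 ± 0.12 (adjusted p = 0.0116) and Pdpk1, the kinase that activates AKT, by 0.54 ± 0.11 (adjusted p = 0.0252). The catalytic subunits Pik3ca (-0.22, adjusted p = 0.333) and Pik3cb (-0.13, adjusted p = 0.612), and Akt1 (-0.16, adjusted p = 0.508) and Akt2 (-0.21, adjusted p = 0.358), did not pass. The call of Pdpk1 ended in 6 of 14 settings and that of Pik3r1 in 1, among arrays 1 to 4 alone (adjusted p = 0.0617).

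Downstream, 1 of 12 genes of the TOR and GSK3 group and 1 of 4 FOXO factors were lower and 0 higher, where 4.3% of all genes were lower, so that 1 of 12 is near the background. Eif4ebp1, a translation repressor that TOR inactivates, fell by 0.58 ± 0.13 log2 (SE; limma adjusted p = 0.0301), and Foxo4, a transcription factor held out of the nucleus by AKT, fell by 0.63 ± 0.14 (adjusted p = 0.0283). Their calls ended in 5 and 6 of 14 settings, with adjusted p up to 0.114 and 0.103. Mtor differed by 0.40 (adjusted p = 0.213). Neither of the 2 measured Igf2 mRNA-binding proteins passed: Igf2bp1 differed by -0.20 (adjusted p = 0.493) and Igf2bp3 by -0.27 (adjusted p = 0.333).

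**Figure D4:**
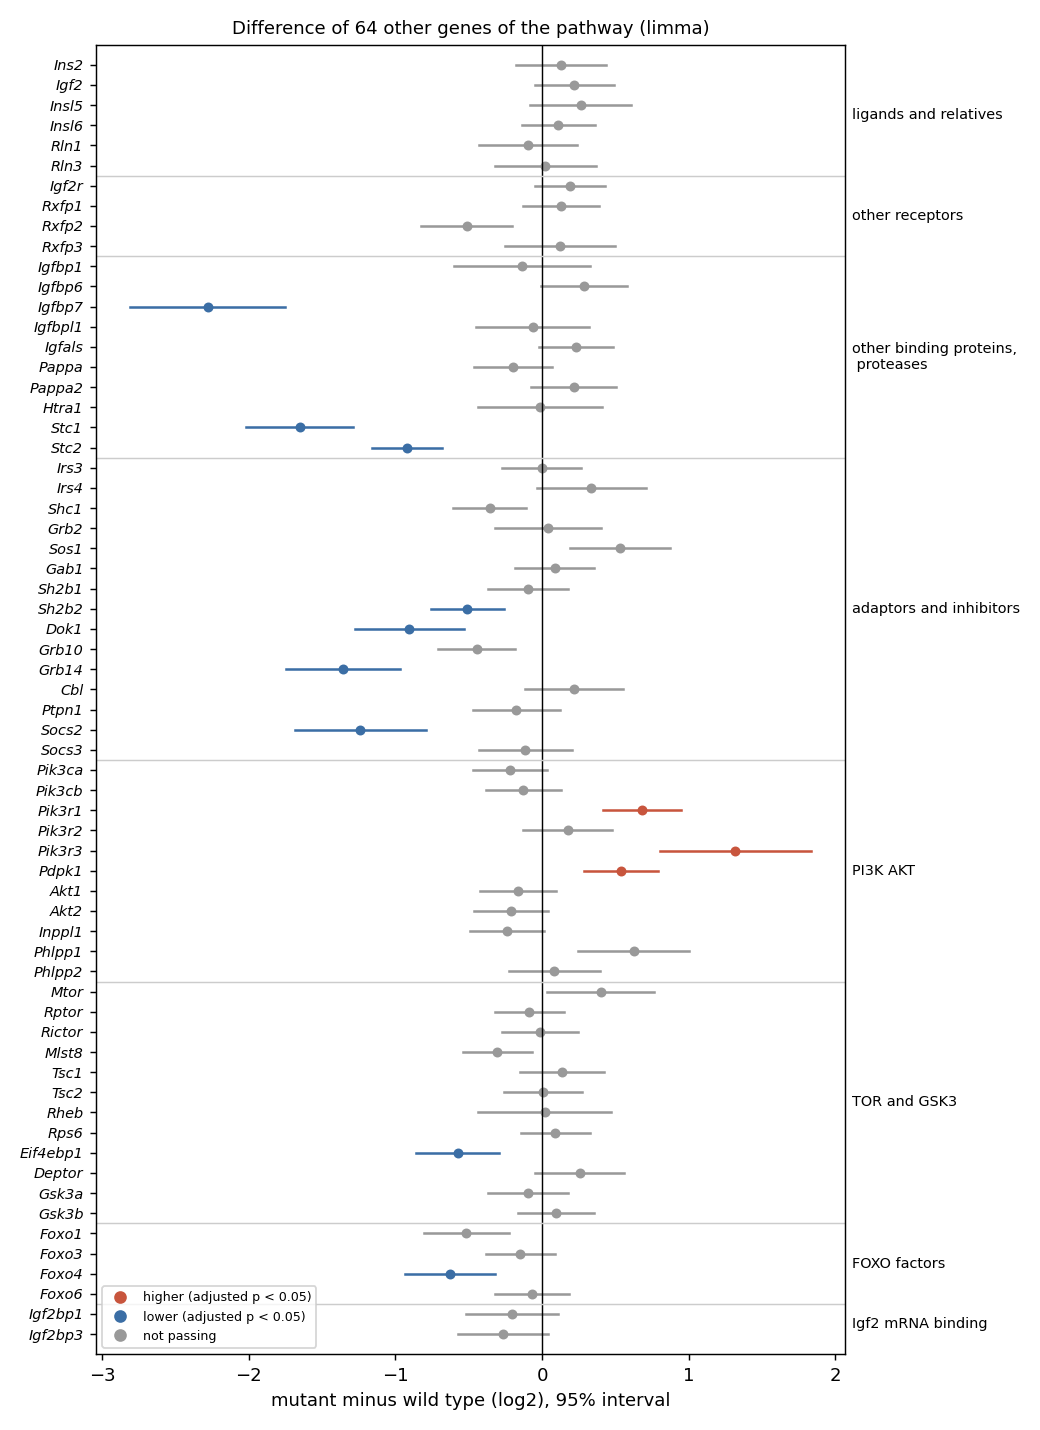
Difference between mutant and wild type in log2 for 64 other genes of the pathway by role, with 95% intervals from limma; red passed as higher, blue as lower, grey did not pass. Blue points are in the binding protein, adaptor, TOR and FOXO groups, with Igfbp7 farthest at -2.28, and the 3 red points are all in the PI3K and AKT group.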

How the data were processed

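Each sample was 1 array made from 300 ng of RNA. The deposited values are on a log2 scale and were made by the authors with RMA, per the submitters' processing notes, which corrects background, equalises distributions between arrays and summarises probes; for its version and settings the sources used here give nothing. Such values cannot show a general change in RNA content, and differences near background are compressed. The number of arrays limits the precision. Of 34760 rows, 6573 below the lowest annotated identifier were left out as controls. The other 28187 were fitted with limma 3.58.1 in R 4.3.3 (lmFit, eBayes, 2-sided), which was also tested on simulated data. Gene names came from the platform annotation: 21640 probe sets had 1 gene, 1321 several and 5226 none, and 21553 matched GRCm38.p6 gene identifiers, with 0 symbols changed. Promoter windows are RefSeq's.

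The members, lists and tests were chosen with earlier results of these data known. Named genes are the 10 members, pathway genes that passed (up to 15), the label checks, marker genes, and the 3 most similar genes for each of up to 4 members that passed; other genes (non-passing pathway genes, neighbours, Afp, Alb) were added for context, some after their values were seen. Alternatives were other scalings, a filter on dim probe sets, array weights, moderation with trend and robust, a term for arrays 5 and 6, arrays 1 to 4 alone, each array left out, and the mean of a gene's probe sets.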

Additional observations from a re-analysis of the deposited data

How the results depend on the processing

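No paired analysis was possible because the groups share no label number. Of the 4 calls among the members, those of Igf1, Igfbp2 and Igfbp3 were kept in all 14 alternatives and that of Irs2 in 11; no member changed direction or gained a call, and Insrr was absent after the filter on dim probe sets. With 1 array left out the number of members that passed ran from 3 to 4, that of the pathway list from 7 to 13 and that of all genes from 593 to 1292, against 4, 12 and 1384. Alternatives that kept all 6 arrays gave 4 members, 13 to 16 pathway genes and 1374 to 2061 of all genes. Among arrays 1 to 4 alone 895 genes passed, where fewer arrays were fitted. The difference of Nr5a1, -0.02 log2, turned positive with a further quantile normalization (0.056), array weights (0.022) and arrays 1 to 4 alone (0.032), and ran from -0.094 to 0.11 with 1 array left out. Insrr and 12 of the 64 pathway genes lay below the background mark, where changes cannot be sized.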

Other observations

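Some pathway genes missed the threshold while their groups did not overlap, and were picked out here after their values were seen. Foxo1, a FOXO factor that insulin signalling restrains, measured 9.45, 9.38 and 9.23 log2 in wild type and 8.64, 8.99 and 8.88 in the mutant (limma adjusted p = 0.0510). Grb10, an imprinted inhibitor of the insulin and IGF receptors, differed by -0.45 log2 (adjusted p = 0.0581), and Rxfp2, the receptor for the Leydig cell hormone INSL3 and below the background mark, by -0.52 (adjusted p = 0.0678). Phlpp1, a phosphatase acting on AKT, differed by 0.62 (adjusted p = 0.0666) and Sos1, the exchange factor that links receptors to RAS, by 0.53 (adjusted p = 0.0820). In all, 20 of the 64 pathway genes had an unadjusted p under 0.05, as did 4324 of all 19937 genes.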
